A study of Rattus norvegicus with 21 samples.

Results

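Neural progenitor genes of the Sox family and of the stem-cell state were followed through 7 groups of rat forebrain astrocyte preparations on an Affymetrix rat expression array. The 7 genes were Sox2, Sox3, Sox4, Sox11, Prom1, Fabp7 and Msi1. A gene was read through every probe set that carried its symbol and no other, and the brightest of them, by its mean on the 21 arrays, was taken as the lead. By this rule 15 of the 31042 probe sets were found for 6 of the 7 genes, against 14217 genes measured in all. Sox2 had 4 probe sets, Sox4 had 7, and Sox3, Sox11, Prom1 and Fabp7 had 1 each. No probe set had Msi1 as its only symbol, so this RNA-binding protein of neural stem cells is not analysed here.

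Each group held 3 biological replicates, and nothing in the labels says whether these came from separate animals or litters, so the tests measure the spread between these preparations. Withdrawn P7 cultures were P7 cells (taken at postnatal day 7) panned on the integrin ITGB5, grown for 7 days in 10% foetal calf serum, then washed and kept 7 more days with HBEGF, a ligand of the EGF receptor. Serum P7 cultures were the same panned P7 cells after the 7 days in 10% serum. MD cultures came from P1 forebrain by the method of McCarthy and de Vellis, with 10% serum, and were harvested after 7 days. HBEGF P7 and HBEGF P1 cultures were panned P7 or P1 cells grown for 7 days with 5 ng/ml HBEGF. Fresh P7 and fresh P1 cells were panned from Sprague Dawley rats and lysed at once. The characteristics of the HBEGF P7 arrays say p1 while their title and source say P7, and the title was followed. Withdrawn cultures were also 7 days older in culture than the serum cultures, and serum P7 cultures differ from MD cultures in donor age and in isolation as well.

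Sox proteins bind DNA through an HMG box. The closely related Sox2 and Sox3 (group B1) keep neural progenitors undifferentiated, whereas Sox4 and Sox11 (group C) act later, when neurons and glia start to differentiate. Prom1, also known as CD133, is a membrane protein of neural stem cells and ependymal cells, and Fabp7 is the brain lipid-binding protein of radial glia and immature astrocytes. Astrocytes descend from radial glia, and several of these genes stay on in young astrocytes.

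Values are log2 of the deposited intensity unless a difference is named. Levels of different probe sets are not comparable with each other, since each probe set has its own brightness. A change was called at a limma adjusted p under 0.05 (over all probe sets) with a log2 difference of at least 1, which is 2-fold. The astrocyte label was checked on 17 measured markers of 18 listed, and they did not run alike. In HBEGF P1 cultures against fresh P1 cells 4 were called higher and 4 lower, against 4.38% and 4.49% of all genes. The lead probe sets of Gfap and Slc1a3 were at 12.03 or higher on all 21 arrays. Slco1c1, a thyroid hormone transporter, averaged 5.23 to 6.83 in the 5 culture groups, against 13.26 in fresh P7 and 12.68 in fresh P1 cells. Grm3, a glutamate receptor, averaged 5.39 to 7.29 in the culture groups, against 13.38 in fresh P7 and 12.71 in fresh P1 cells. The glutamate transporter gene Slc1a2 averaged 6.14 to 7.38 in the culture groups, against 10.37 in fresh P7 and 8.25 in fresh P1 cells. Aldh1l1 was lowest in MD cultures at 8.65 ± 0.21 (SD, n = 3) and averaged 11 to 12.56 in the other groups. The HBEGF P7 arrays had the lowest correlation among replicates, with Spearman values of 0.974, 0.977 and 0.963, and replicates 2 and 3 lay farthest from their group mean. Replicate 3 of the withdrawn P7 and of the serum P7 cultures stood apart from a close pair. Its Spearman correlation with replicates 1 and 2 was 0.979 and 0.980 in withdrawn P7 and 0.974 and 0.979 in serum P7 cultures, against 0.994 between replicates 1 and 2 in both. Replicate 1 of the fresh P1 and of the MD samples stood apart likewise, at 0.980 and 0.982 in fresh P1 and 0.978 and 0.982 in MD. Between replicates 2 and 3 the value was 0.994 in fresh P1 and 0.991 in MD samples. Each call that is lost or gained without any of these arrays is given below with its value. The exception is Sox11 in serum P7 against MD cultures, where a range of adjusted p is given. In these bulk samples fewer cells of a type and less RNA per cell cannot be told apart.

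All 6 measured genes differed among the 7 groups by limma's moderated F test, with adjusted p from 2.80e-08 for Sox3 to 0.0179 for Sox2. This was also true of 74.9% of all genes. The single comparisons separated the genes. Sox3 was lower in the withdrawn P7, serum P7 and MD cultures than in the HBEGF or fresh cells they were tested against, Sox11 was lower in serum P7 and withdrawn P7 cultures but was not called in MD cultures, Sox4 was lowest in MD cultures, and Prom1 was lower in the 4 kinds of culture tested against fresh cells. The lead probe sets of Sox2 and Fabp7 crossed the 2-fold limit in none of the 11 comparisons between groups. A further probe set of Sox2 was called in 2 of them, and Fabp7 was measured near the top of the scale of the arrays.

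**Figure D1:**
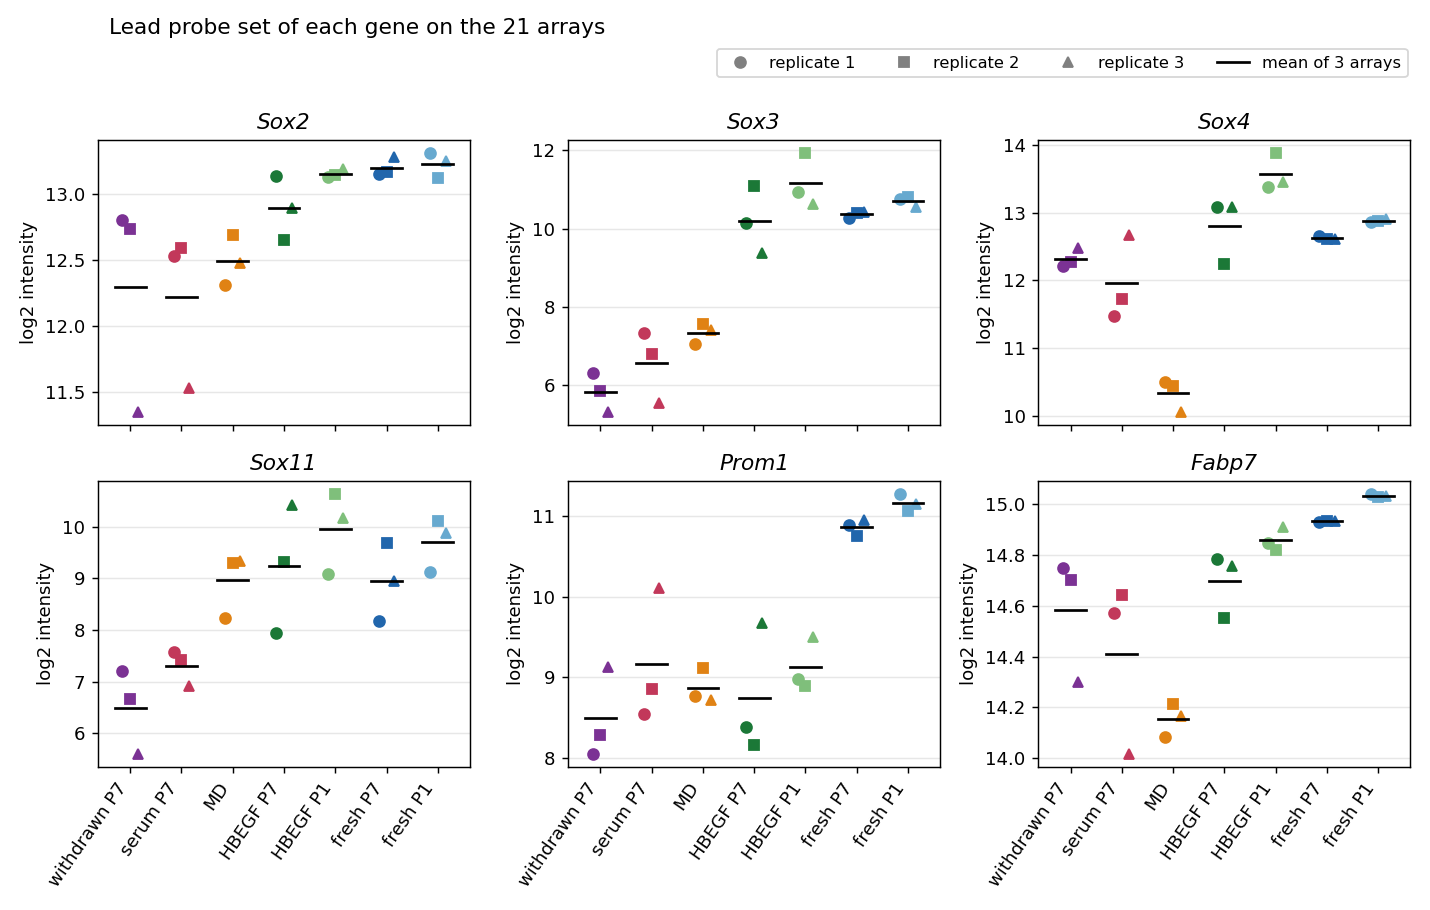
Log2 intensity of the lead probe set of each measured gene on the 21 arrays, by group, with replicates as symbols and the mean of 3 arrays as a bar; each panel has its own axis. Sox3 lies at 7.56 or lower in the withdrawn P7, serum P7 and MD cultures and at 9.37 or higher in the other 4 groups, while Prom1 is highest in the fresh cells.

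The promoters of Sox3, Sox11 and Prom1 are printed because these genes had the most calls across the comparisons. Entries were found for 5 of the 7 genes, not for Sox4 and Msi1. The sequences are the 250 bases before the transcript start in the RefSeq table of the rat build GRCr8, on the strand given, and capitals mark matches to the GC box GGGCGG on either strand. Sox3 lies on chromosome X, with its promoter at chrX:144346972-144347221 on the minus strand. Sox11 lies on chromosome 6, with its promoter at chr6:49738795-49739044 on the minus strand. Prom1 lies on chromosome 14, and the first of its 2 entries spans chr14:71202395-71202644 on the plus strand. Only this first entry is printed, and it lies inside the gene as annotated, which spans 71202303 to 71307008.
Sox3: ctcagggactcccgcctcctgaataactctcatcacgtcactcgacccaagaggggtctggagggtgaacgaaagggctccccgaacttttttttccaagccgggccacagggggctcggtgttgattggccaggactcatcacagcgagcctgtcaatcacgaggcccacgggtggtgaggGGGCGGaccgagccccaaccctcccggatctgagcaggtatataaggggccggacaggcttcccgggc
Sox11: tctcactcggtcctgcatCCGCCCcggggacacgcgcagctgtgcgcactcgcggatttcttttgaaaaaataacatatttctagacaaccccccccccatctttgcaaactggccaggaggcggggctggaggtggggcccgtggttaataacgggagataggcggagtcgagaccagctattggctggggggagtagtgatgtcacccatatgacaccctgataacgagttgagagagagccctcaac
Prom1: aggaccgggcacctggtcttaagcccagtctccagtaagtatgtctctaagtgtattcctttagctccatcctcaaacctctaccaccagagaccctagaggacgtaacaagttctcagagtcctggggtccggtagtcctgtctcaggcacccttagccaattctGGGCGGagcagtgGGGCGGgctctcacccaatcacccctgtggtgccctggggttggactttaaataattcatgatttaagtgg
The Sox3 promoter has a GC content of 62.4% and that of Sox11 56.8%, and the printed Prom1 entry has 53.2%, against a median of 51.2% over all 33469 promoters of the table. Each of the Sox3 and Sox11 promoters held 1 GC box, starting 68 and 232 bases before the start, and the printed Prom1 entry held 2, starting 84 and 71 bases before its start. The second Prom1 entry has a GC content of 48.8% and held 0 GC boxes. A GC box occurred in 30.5% of all promoters. None of the 3 printed sequences held the SOX core ACAAT, present in 30% of all promoters, the RBPJ core TGGGAA, present in 22.1%, or a CArG box, present in 1.5%. Both strands were searched for every motif, and a match describes letters only.

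Sox3 had the widest range of the 6 genes, with group means spanning 5.34 log2 units. On the withdrawn P7 arrays it was at 6.30, 5.84 and 5.31, on the serum P7 arrays at 7.33, 6.80 and 5.55, and on the MD arrays at 7.06, 7.56 and 7.41. On the HBEGF P7 arrays it was at 10.13, 11.08 and 9.37, on the HBEGF P1 arrays at 10.93, 11.94 and 10.62, on the fresh P7 arrays at 10.28, 10.40 and 10.42, and on the fresh P1 arrays at 10.75, 10.79 and 10.56. No array of the first 3 groups reached any array of the other 4, and the gap between the HBEGF P7 and MD means was 2.85.

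Serum P7 cultures had a Sox3 level 14 times lower than fresh P7 cells (log2 change -3.81, SE 0.44, adjusted p = 3.50e-06), in a comparison where 9.04% of all genes were called lower and 3 of the 6 measured progenitor genes were. The difference to HBEGF P7 cultures, grown for the same 7 days from cells of the same age, was nearly as large (log2 change -3.64, SE 0.44, adjusted p = 2.86e-05), where 2 of the 6 were called lower against 4.47% of all genes. MD cultures stood 10.3 times below fresh P1 cells (log2 change -3.36, SE 0.44, adjusted p = 1.14e-05), with 3 of the 6 called lower against 9.43% of all genes. They stood 14.1 times below HBEGF P1 cultures (log2 change -3.82, SE 0.44, adjusted p = 3.60e-06), with 2 of the 6 called lower against 9.57%. These 4 calls held with any 1 array left out. Serum P7 cultures differ from HBEGF P7 cultures in HBEGF as well as in serum, and MD cultures differ from HBEGF P1 cultures and fresh P1 cells in isolation too, and the parts of these cannot be told apart.

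Sox3 was still low 7 days after the serum was replaced with HBEGF. Withdrawn P7 cultures were 20.7 times below HBEGF P7 cultures (log2 change -4.37, SE 0.44, adjusted p = 7.60e-06), where 2 of the 6 genes were called lower against 5.42% of all genes. On the withdrawn P7 arrays Sox3 ranked 18595 to 23443 among 31042 probe sets, so the size of this fold rests on dim values. Against serum P7 cultures the log2 change was -0.74 with a 95% interval from -1.66 to 0.19 (adjusted p = 0.39), and the groups overlapped. Of the 6 genes 0 were called between withdrawn P7 and serum P7 cultures by limma, 0 had an unadjusted p under 0.05, and 4.50% of all genes were called in either direction. Without replicate 3 of both groups, which was the lowest array for Sox3 in each, the change against HBEGF P7 cultures was -4.12 (adjusted p = 1.09e-05) and that of withdrawn P7 against serum P7 cultures was -0.99 (adjusted p = 0.215).

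In HBEGF without serum exposure Sox3 was not called different from fresh cells. The log2 change was -0.17 in HBEGF P7 cultures against fresh P7 cells, with a 95% interval from -1.10 to 0.75, and 0.46 in HBEGF P1 cultures against fresh P1 cells, with an interval from -0.46 to 1.38. HBEGF P7 cultures lay 0.97 below HBEGF P1 cultures (95% interval -1.89 to -0.04, adjusted p = 0.411), and the arrays overlapped. The replicates of the HBEGF cultures were spread over 1.70 log2 units at P7 and 1.33 at P1, far more than the 0.23 or less of the fresh groups.

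The lead probe set of Sox2 spanned a narrower range. It was at 12.80, 12.73 and 11.35 on the withdrawn P7 arrays, at 12.53, 12.59 and 11.53 on the serum P7 arrays, and at 12.31, 12.69 and 12.48 on the MD arrays. It was at 13.13, 12.65 and 12.90 on the HBEGF P7 arrays, at 13.13, 13.14 and 13.19 on the HBEGF P1 arrays, at 13.15, 13.17 and 13.28 on the fresh P7 arrays, and at 13.31, 13.12 and 13.24 on the fresh P1 arrays. The lowest values were replicate 3 of the withdrawn P7 and serum P7 cultures, which were among the arrays that stood apart.

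Serum P7 cultures had less Sox2 than fresh P7 cells (log2 change -0.98, SE 0.31, adjusted p = 0.0184), just under the 2-fold limit, and the arrays did not overlap. Without serum P7 replicate 3 the difference was -0.64, and without serum P7 replicate 1, serum P7 replicate 2 or fresh P7 replicate 1 it was -1.14, -1.17 and -1.01 and passed the limit. In MD cultures the log2 change was -0.74 against fresh P1 cells (95% interval -1.38 to -0.09, adjusted p = 0.0701) and -0.66 against HBEGF P1 cultures (95% interval -1.31 to -0.01, adjusted p = 0.104), again without overlap of the arrays. The spread in these tests is pooled over the 7 groups. For this probe set the SD was 0.59 in serum P7 and 0.82 in withdrawn P7, against 0.19 in MD, 0.10 in fresh P1 and 0.03 in HBEGF P1 samples. Over 10 alternative settings the limma adjusted p for MD cultures ran from 1.82e-04 to 0.108 against fresh P1 cells. Against HBEGF P1 cultures it ran from 5.20e-04 to 0.208, and both changes stayed under 2-fold. Sox2 and Sox3 had group means that ran in nearly the same order, with a Pearson r of 0.967 over the 7 means of shared arrays, but Sox3 spanned 5.34 log2 units and the Sox2 lead 1.01.

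Among the group C genes, the lead probe set of Sox4 set MD cultures apart from all other groups. Its MD arrays were at 10.49, 10.43 and 10.05, against 13.39, 13.89 and 13.45 on the HBEGF P1 arrays and 12.87, 12.87 and 12.90 on the fresh P1 arrays. The withdrawn P7 arrays were at 12.21, 12.27 and 12.47, the serum P7 arrays at 11.47, 11.72 and 12.67, the HBEGF P7 arrays at 13.08, 12.25 and 13.09, and the fresh P7 arrays at 12.66, 12.62 and 12.60. Every MD array was lower than every other array, and every HBEGF P1 array was higher than every other array.

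Sox4 was 5.87 times lower in MD cultures than in fresh P1 cells (log2 change -2.55, SE 0.26, adjusted p = 7.17e-07) and 9.49 times lower than in HBEGF P1 cultures (log2 change -3.25, SE 0.26, adjusted p = 8.15e-08). Serum P7 cultures, in the same share of serum, had 3.09 times more Sox4 than MD cultures (log2 change 1.63, SE 0.26, adjusted p = 1.79e-04). In that comparison 1 of the 6 genes was called higher, against 7.58% of all genes, and 1 was called lower, against 6.37%. The serum P7 level was below that of HBEGF P7 cultures (log2 change -0.85, SE 0.26, adjusted p = 0.0265) and below that of fresh P7 cells (log2 change -0.67, 95% interval -1.22 to -0.13, adjusted p = 0.0503), both short of the 2-fold limit. These values turned on single arrays. Without serum P7 replicate 3 they were -1.21 (adjusted p = 0.0013) and -1.03 (adjusted p = 0.0017), both called, and without HBEGF P7 replicate 2 the change against HBEGF P7 cultures was -1.13 (adjusted p = 0.00601), also called. HBEGF P1 cultures stood 0.69 above fresh P1 cells (95% interval 0.15 to 1.24, adjusted p = 0.0705), without overlap.

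Sox11 fell in panned cells grown in serum and was not called in MD cultures. It was at 7.21, 6.66 and 5.60 on the withdrawn P7 arrays and at 7.58, 7.41 and 6.91 on the serum P7 arrays. It was at 8.24, 9.31 and 9.33 on the MD arrays, 7.95, 9.33 and 10.42 on the HBEGF P7 arrays and 9.08, 10.63 and 10.18 on the HBEGF P1 arrays. Fresh P7 arrays were at 8.18, 9.69 and 8.95, and fresh P1 arrays at 9.11, 10.11 and 9.87. All 6 serum P7 and withdrawn P7 arrays were lower than all 15 others, and replicate 1 was the lowest in MD cultures and in both HBEGF and both fresh groups.

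Serum P7 cultures had 3.12 times less Sox11 than fresh P7 cells (log2 change -1.64, SE 0.58, adjusted p = 0.0348), 3.82 times less than HBEGF P7 cultures (log2 change -1.93, SE 0.58, adjusted p = 0.0251) and 3.16 times less than MD cultures (log2 change -1.66, SE 0.58, adjusted p = 0.0431). Withdrawn P7 cultures had 6.68 times less than HBEGF P7 cultures (log2 change -2.74, SE 0.58, adjusted p = 0.00277). The first 3 calls were lost when some single arrays were left out. Against fresh P7 cells this happened without fresh P7 replicate 2 (-1.26, adjusted p = 0.14) or 3 (-1.63, adjusted p = 0.078) and without serum P7 replicate 1 (-1.78, adjusted p = 0.0517), 2 (-1.70, adjusted p = 0.0654) or 3 (-1.45, adjusted p = 0.108). Against HBEGF P7 cultures it happened without HBEGF P7 replicate 2 (-1.89, adjusted p = 0.0637) or 3 (-1.34, adjusted p = 0.113) and without serum P7 replicate 2 (-1.99, adjusted p = 0.0558) or 3 (-1.74, adjusted p = 0.0847). Against MD cultures 12 of the 21 fits that left out 1 array kept the call of Sox11. The 9 others were those without MD replicate 2 or 3, any serum P7 replicate, or fresh P1 replicate 3, fresh P7 replicate 3, HBEGF P1 replicate 3 or withdrawn P7 replicate 2, with adjusted p between 0.0516 and 0.135.

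In MD cultures the Sox11 change was -0.74 against fresh P1 cells (95% interval -1.96 to 0.48, adjusted p = 0.344) and -1.0 against HBEGF P1 cultures (95% interval -2.23 to 0.22, adjusted p = 0.19). Replicate numbers paired the samples of the MD and HBEGF P1 groups, and with the number as a block in a fit of these groups alone the change of -1.0 was called (adjusted p = 0.00172). With the block in the fit of all 7 groups it was not. Without replicate 3 of both serum P7 and withdrawn P7 cultures, the change of Sox11 in withdrawn P7 against HBEGF P7 cultures was -2.30 (adjusted p = 0.0185) and was called. Sox11 was lowest in the same groups as Sox3, with an r of 0.902 between their 7 group means, and ran apart from Sox4, with an r of 0.316.

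**Figure D2:**
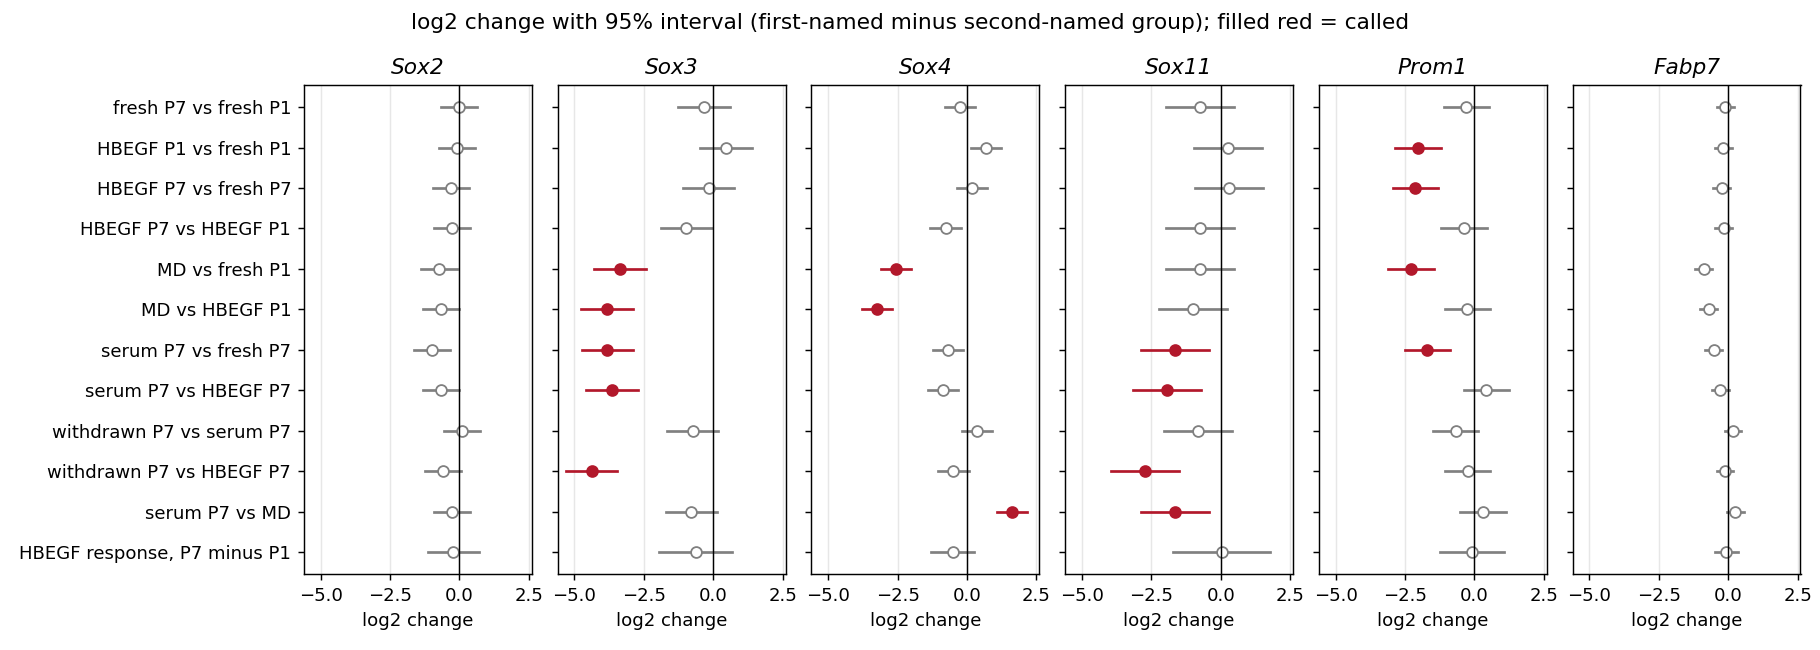
Log2 change with its 95% interval for each measured gene in the 11 comparisons and for the difference of the HBEGF response between P7 and P1 cells, first-named group minus second-named group, with called changes filled in red. The calls of Sox3 gather in the comparisons of serum-exposed cultures with other cells, those of Prom1 in the comparisons with fresh cells.

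Prom1 was lower in each tested kind of culture than in the fresh cells, whatever the medium. It was at 8.06, 8.29 and 9.14 on the withdrawn P7 arrays, at 8.55, 8.86 and 10.11 on the serum P7 arrays and at 8.77, 9.12 and 8.71 on the MD arrays. It was at 8.39, 8.16 and 9.68 on the HBEGF P7 arrays and at 8.98, 8.90 and 9.50 on the HBEGF P1 arrays, against 10.89, 10.76 and 10.95 on the fresh P7 arrays and 11.27, 11.06 and 11.15 on the fresh P1 arrays. No culture array reached a fresh array, and replicate 3 was the highest array in 4 of the 5 culture groups.

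HBEGF P7 cultures had 4.36 times less Prom1 than fresh P7 cells (log2 change -2.12, SE 0.39, adjusted p = 0.000676), the single call among the 6 genes where 5.51% of all genes were called lower. HBEGF P1 cultures had 4.09 times less than fresh P1 cells (log2 change -2.03, SE 0.39, adjusted p = 0.00115), again the single call, where 4.49% of all genes were called lower. The difference between these 2 responses was -0.09 (95% interval -1.25 to 1.07, adjusted p = 0.978). Prom1 was 4.90 times lower in MD cultures than in fresh P1 cells (log2 change -2.29, SE 0.39, adjusted p = 1.59e-04) and 3.24 times lower in serum P7 cultures than in fresh P7 cells (log2 change -1.70, SE 0.39, adjusted p = 0.00237). All 4 calls held with any 1 array left out.

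Between cultures Prom1 was not called in any comparison. The log2 change was 0.43 in serum P7 against HBEGF P7 cultures (95% interval -0.39 to 1.25, adjusted p = 0.47), -0.68 in withdrawn P7 against serum P7 cultures (95% interval -1.50 to 0.14, adjusted p = 0.368) and -0.26 in MD against HBEGF P1 cultures (95% interval -1.08 to 0.56, adjusted p = 0.638). Without serum P7 replicate 3, the array at 10.11, the change against HBEGF P7 cultures turned to -0.04. Ependymal cells also make Prom1, and the 6 measured ependymal and ciliated cell genes of 12 listed had a mean level of 8.80 to 10.08 in withdrawn P7, 8.0 to 8.71 in serum P7 and 7.42 to 8.04 in MD cultures. They had 7.62 to 10.69 in HBEGF P7 and 8.06 to 9.58 in HBEGF P1 cultures, against 7.31 to 8.15 in fresh P7 and 7.85 to 8.61 in fresh P1 cells. In serum P7, HBEGF P7 and HBEGF P1 cultures the array with the highest Prom1 level, replicate 3, also had the highest mean of these genes, at 8.71, 10.69 and 9.58, while in withdrawn P7 cultures it had the lowest, at 8.80. Of these 6 genes 1 was called higher in HBEGF P7 and 1 in serum P7 cultures against fresh P7 cells, and 0 were called in HBEGF P1 and MD cultures against fresh P1 cells. The shares of all genes called higher were 4.78% in HBEGF P7, 9.12% in serum P7, 4.38% in HBEGF P1 and 10.1% in MD cultures. The part of these 6 genes in the Prom1 values was not tested.

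Fabp7 was among the brightest probe sets of the array in every group. Its rank among 31042 probe sets was 15 to 70 in withdrawn P7, 19 to 119 in serum P7, 91 to 128 in MD, 7 to 34 in HBEGF P7 and 5 to 7 in HBEGF P1 cultures, and 1 to 3 in fresh P7 and 1 in fresh P1 cells. It was the brightest probe set on 4 arrays. The highest value of an array lay between 14.93 and 15.21, so Fabp7 sat near the top of the scale, and whether this limits its fold changes was not tested. Fabp7 was at 14.75, 14.70 and 14.30 on the withdrawn P7 arrays, 14.57, 14.64 and 14.02 on the serum P7 arrays and 14.08, 14.21 and 14.17 on the MD arrays. It was at 14.78, 14.55 and 14.75 on the HBEGF P7 arrays, 14.85, 14.82 and 14.91 on the HBEGF P1 arrays and 14.93 on each fresh P7 array, and at 15.04, 15.03 and 15.03 on the fresh P1 arrays. HBEGF P7 cultures, HBEGF P1 cultures, fresh P7 cells and fresh P1 cells thus formed an order, with means of 14.70, 14.86, 14.93 and 15.03, in which no neighbours overlapped. The steps are small. By limma, neither HBEGF P7 against HBEGF P1 cultures (adjusted p = 0.796) nor fresh P7 against fresh P1 cells (adjusted p = 0.776) was called. On the fresh P1 arrays the Fabp7 value was itself the highest value of the array.

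Fabp7 was lower in MD cultures than in fresh P1 cells (log2 change -0.88, SE 0.14, adjusted p = 1.01e-04) and than in HBEGF P1 cultures (log2 change -0.70, SE 0.14, adjusted p = 0.000848), and lower in serum P7 cultures than in fresh P7 cells (log2 change -0.52, SE 0.14, adjusted p = 0.00799). All 3 passed the adjusted p and stayed under 2-fold, and in each the arrays did not overlap. In HBEGF cultures the log2 change was -0.24 against fresh P7 cells (95% interval -0.54 to 0.06) and -0.18 against fresh P1 cells (95% interval -0.48 to 0.12).

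Between the ages none of the 6 genes was called. All 6 genes were lower in fresh P7 than in fresh P1 cells, with log2 changes of -0.03 for Sox2 to -0.76 for Sox11, but 0 of the 6 were called by limma (adjusted p 0.537 to 0.975), 0 had an unadjusted p under 0.05, and 1.55% of all genes were called in either direction. The widest interval was that of Sox11, from -1.98 to 0.46, and the narrowest that of Fabp7, from -0.40 to 0.20. HBEGF P7 cultures were lower than HBEGF P1 cultures for all 6 genes too, with log2 changes of -0.16 for Fabp7 to -0.97 for Sox3, with 0 called against 1.11% of all genes. There 2 genes had an unadjusted p under 0.05, Sox3 and Sox4 (log2 change -0.77, 95% interval -1.31 to -0.23, adjusted p = 0.199). For the difference of the response to HBEGF culture between P7 and P1 cells 0 of the 6 were called (adjusted p 0.658 to 0.997, none with an unadjusted p under 0.05), against 0.816% of all genes.

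The additional probe sets of Sox2 and Sox4 were read beside their leads. For Sox2, the probe set 1381874_at followed the lead with an r of 0.972 over the 7 group means but with a range of 2.11 instead of 1.01. It was called lower in MD cultures against fresh P1 cells (log2 change -1.27, adjusted p = 0.0383) and in serum P7 cultures against fresh P7 cells (log2 change -1.65, adjusted p = 0.00957), where the lead was not called. The probe set 1375153_at did not vary among the groups (F test, adjusted p = 0.721), with replicates of a group up to 3.45 log2 units apart, and 1389826_at was dim, with a mean of 4.87. Whether Sox2 passed the 2-fold limit therefore depended on the probe set, and with the mean of its 4 probe sets the F test gave an adjusted p of 0.0862.

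For Sox4 the MD decrease appeared on several probe sets. Against HBEGF P1 cultures, 1373860_at, 1384000_at, 1383989_at and 1393571_at were lower in MD cultures, with log2 changes of -3.69, -3.60, -2.31 and -2.72, all called beside the lead. The remaining 1375123_at and 1375257_at were not called, and 1375257_at, with a mean of 5.72, ran against the lead with an r of -0.77. The probe set 1373860_at was also called lower in serum P7 cultures against fresh P7 cells (log2 change -1.49, adjusted p = 0.00118), in serum P7 against HBEGF P7 cultures (log2 change -1.55, adjusted p = 0.00201) and in withdrawn P7 against HBEGF P7 cultures (log2 change -1.02, adjusted p = 0.0246), 3 comparisons in which the lead was not called. In serum P7 against MD cultures 1373860_at (log2 change 1.16) and 1384000_at (2.47) were called higher like the lead. The other probe sets were not called there. Their changes were 0.08 for 1383989_at (adjusted p = 0.914, overlapping arrays), 0.39 for 1375123_at, 0.67 for 1393571_at and -0.22 for 1375257_at. With the mean of the 7 probe sets, Sox4 in serum P7 against MD cultures was 0.88 higher (adjusted p = 0.0146) and under the 2-fold limit.

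**Figure D3:**
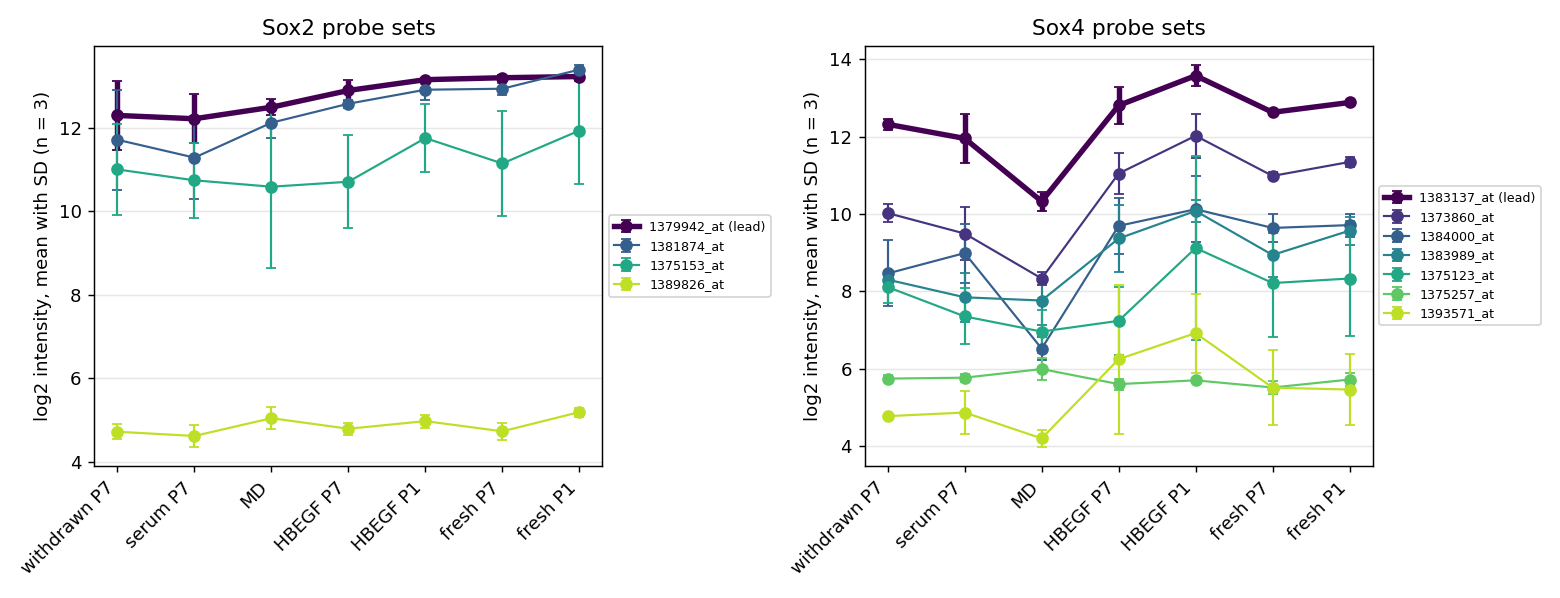
Mean log2 intensity with SD (n = 3) of the 4 Sox2 and 7 Sox4 probe sets in the 7 groups, the lead drawn thicker. The Sox4 lead, 1373860_at and 1384000_at dip together in MD cultures, while the dim 1375257_at does not.

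The other members of the Sox family were read next. Of 15 further Sox genes listed 10 were measured, and the number called was 3 of 10 lower in MD cultures against fresh P1 cells, 2 of 10 lower in serum P7 cultures against fresh P7 cells, and 1 higher and 1 lower in HBEGF P1 cultures against fresh P1 cells. Of all genes 9.43% were called lower in the first of these, 9.04% in the second, and 4.38% higher and 4.49% lower in the third. With 10 genes each called gene is 10% of the list. Sox6, a group D factor of glial and neuronal development, followed the direction of Sox3. It was lower in withdrawn P7 against HBEGF P7 cultures (log2 change -1.99, adjusted p = 0.00349), in serum P7 cultures against HBEGF P7 cultures (-1.34, adjusted p = 0.036) and against fresh P7 cells (-1.71, adjusted p = 0.00502), and in MD cultures against HBEGF P1 cultures (-1.16, adjusted p = 0.046) and fresh P1 cells (-1.39, adjusted p = 0.0182). Sox7, known from endothelial cells, was lower in HBEGF P1 cultures (-2.17, adjusted p = 1.28e-04), MD cultures (-1.46, adjusted p = 0.00167) and serum P7 cultures (-1.76, adjusted p = 3.71e-04) than in fresh cells of the same age, as it was in HBEGF P7 cultures (-1.17, adjusted p = 0.014), where the arrays overlapped. Sox10, the factor of the oligodendrocyte lineage, stood at 8.54, 7.50 and 7.53 in HBEGF P1 cultures, against 5.97, 6.10 and 6.0 in fresh P1 cells. Of the 10, it alone was called for a difference of the response to HBEGF culture between P7 and P1 cells (-1.46, adjusted p = 0.0333).

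Other progenitor and radial glia genes were read in the same comparisons. Of 34 listed 28 were measured, and in MD cultures against fresh P1 cells 13 were called lower and 0 higher, in serum P7 cultures against fresh P7 cells 12 lower and 2 higher, in HBEGF P7 cultures against fresh P7 cells 9 lower and 0 higher and in HBEGF P1 cultures against fresh P1 cells 7 lower and 1 higher. Of all genes 9.43% were called lower and 10.1% higher in the first of these comparisons, 9.04% and 9.12% in the second, 5.51% and 4.78% in the third and 4.49% and 4.38% in the fourth. The median log2 change of the list was -0.95 in MD cultures against fresh P1 cells, where that of all genes was 0.11, and -0.81 in serum P7 cultures against fresh P7 cells, where that of all genes was 0.07. Hes5, a Notch effector, was at 6.62, 6.12 and 7.26 in HBEGF P7 cultures, against 11.15, 12.51 and 12.80 in fresh P7 cells. Its log2 change against fresh cells was -5.80 in serum P7, -4.70 in MD, -5.49 in HBEGF P7 and -2.49 in HBEGF P1 cultures, all called. Gli1, a target and effector of hedgehog signalling, fell in the same 4 comparisons, with log2 changes of -3.40, -2.70, -3.71 and -3.12. Like Prom1, these genes were lower in cultures with and without serum.

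Some genes of the list differed between media as well. Tnc, the matrix protein tenascin C, was at 13.26, 13.40 and 12.96 in MD cultures and 9.91, 8.28 and 10.07 in HBEGF P1 cultures, so it was higher in MD cultures (log2 change 3.79, adjusted p = 1.23e-04), and in withdrawn P7 cultures it was lower than in serum P7 cultures (-2.71, adjusted p = 0.0126). Against fresh P1 cells, with a mean of 14.22, Tnc was lower in HBEGF P1 cultures (-4.80, adjusted p = 3.19e-05). In MD cultures its change against fresh P1 cells was -1.01 (adjusted p = 0.216) and was not called. Against fresh P7 cells it was called lower in HBEGF P7 (-5.24) and serum P7 cultures (-3.09). Nes, the progenitor filament protein nestin, was higher in MD than in HBEGF P1 cultures (1.43, adjusted p = 0.00592). The Notch ligand gene Dll1 was lower in MD than in HBEGF P1 cultures (-2.68, adjusted p = 1.60e-05), in serum P7 than in HBEGF P7 cultures (-1.77, adjusted p = 0.002) and in withdrawn P7 than in HBEGF P7 cultures (-1.94, adjusted p = 0.001), 3 of the 5 comparisons in which Sox3 was called lower. Unlike Sox3, Dll1 had higher means in HBEGF P1 (9.78) and HBEGF P7 cultures (8.92) than in both fresh groups (7.92). Its means in MD and serum P7 cultures were 7.10 and 7.15. Over the list 4 genes were called higher and 8 lower in MD against HBEGF P1 cultures, 3 higher and 2 lower in serum P7 against HBEGF P7 cultures, 4 higher and 6 lower in withdrawn P7 against HBEGF P7 cultures, and 0 higher and 2 lower in withdrawn P7 against serum P7 cultures. The shares of all genes called higher and lower were 8.81% and 9.57% in the first of these comparisons, 4.83% and 4.47% in the second, 6.29% and 5.42% in the third and 2.24% and 2.26% in the fourth.

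**Figure D4:**
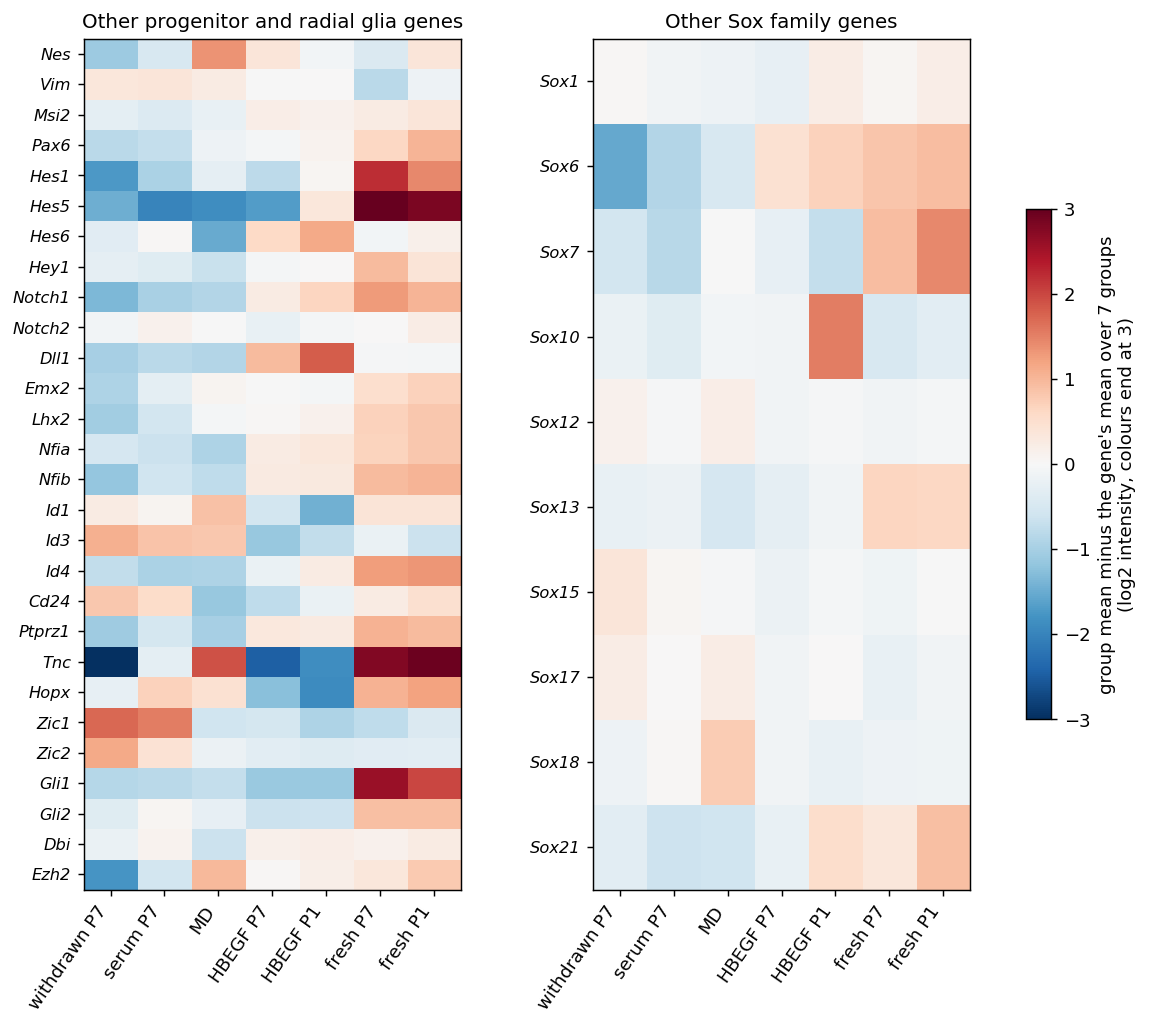
Group means of 28 other progenitor and radial glia genes (left) and 10 other Sox genes (right) as the difference from each gene's mean over the 7 groups, in log2 intensity; colours end at 3. Hes5 and Gli1 are high in the fresh cells, Sox6 is lowest in withdrawn P7 cultures and Sox10 is highest in HBEGF P1 cultures.

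Markers of other cells differed between the same groups. The 14 measured fibroblast and meningeal genes of 15 listed had a mean level of 11.54 to 12.12 in withdrawn P7 and 10.71 to 12.08 in serum P7 cultures, where Sox3 and Sox11 were lowest, and 7.29 to 7.71 in MD cultures. In MD cultures Sox3 was called lower, while Sox11 was not called against fresh P1 cells (log2 change -0.74) or HBEGF P1 cultures (-1.0). The list had 8.63 to 10.67 in HBEGF P7 and 8.72 to 9.07 in HBEGF P1 cultures, and 8.40 to 9.26 in fresh P7 and 7.87 to 8.81 in fresh P1 cells. In serum P7 cultures 9 of the 14 were called higher and 0 lower against fresh P7 cells, in MD cultures 2 higher and 5 lower against fresh P1 cells. Of all genes 9.12% were called higher and 9.04% lower in the first of these comparisons, and 10.1% and 9.43% in the second. In withdrawn P7 against HBEGF P7 cultures 11 were called higher and 0 lower, in serum P7 against HBEGF P7 cultures 7 higher and 0 lower, and in MD against HBEGF P1 cultures 1 higher and 8 lower. The shares of all genes called higher and lower in these comparisons were 6.29% and 5.42%, 4.83% and 4.47%, and 8.81% and 9.57%. No intensity of the table was below 10, so no marker was listed at 0, and the part of these cells in the results was not tested.

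Young neurons express Sox4 and Sox11. The 19 measured young neuron genes of 21 listed had a mean level of 6.06 to 6.76 in withdrawn P7, 6.35 to 7.25 in serum P7 and 7.09 to 7.31 in MD cultures, 6.45 to 8.90 in HBEGF P7 and 8.16 to 8.84 in HBEGF P1 cultures, and 6.69 to 7.0 in fresh P7 and 7.88 to 8.23 in fresh P1 cells. In serum P7 against HBEGF P7 cultures 5 of the 19 were called lower and 0 higher, and in MD against HBEGF P1 cultures 7 lower and 0 higher. Of all genes 4.47% were called lower in the first of these comparisons and 9.57% in the second. Within HBEGF P7 cultures the list was at 7.07, 6.45 and 8.90 on replicates 1, 2 and 3, and Sox11 was at 7.95, 9.33 and 10.42 on the same arrays. Dcx, a microtubule protein of migrating neurons, was at 7.24, 5.55 and 10.37 there. The list was thus highest on the array where Sox11 was highest, but lowest on replicate 2, where Sox11 was not the lowest. In serum P7 cultures the list was highest on replicate 3, at 7.25, where Sox11 was lowest, at 6.91. Sox4 was highest on replicate 3 in both groups, at 13.09 in HBEGF P7 and 12.67 in serum P7 cultures. The part of such cells in the Sox results was not tested.

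Progenitors divide, so cell cycle genes were read as well. The mean of 24 measured cell cycle genes was 8.93 to 9.02 in withdrawn P7, 10.19 to 10.28 in serum P7 and 11.28 to 11.57 in MD cultures. It was 9.48 to 11.15 in HBEGF P7 and 9.59 to 10.25 in HBEGF P1 cultures, against 10.11 to 10.50 in fresh P7 and 10.76 to 10.84 in fresh P1 cells. MD cultures had the highest mean of this list and withdrawn P7 cultures the lowest, and its part in the results was not tested.

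**Figure D5:**
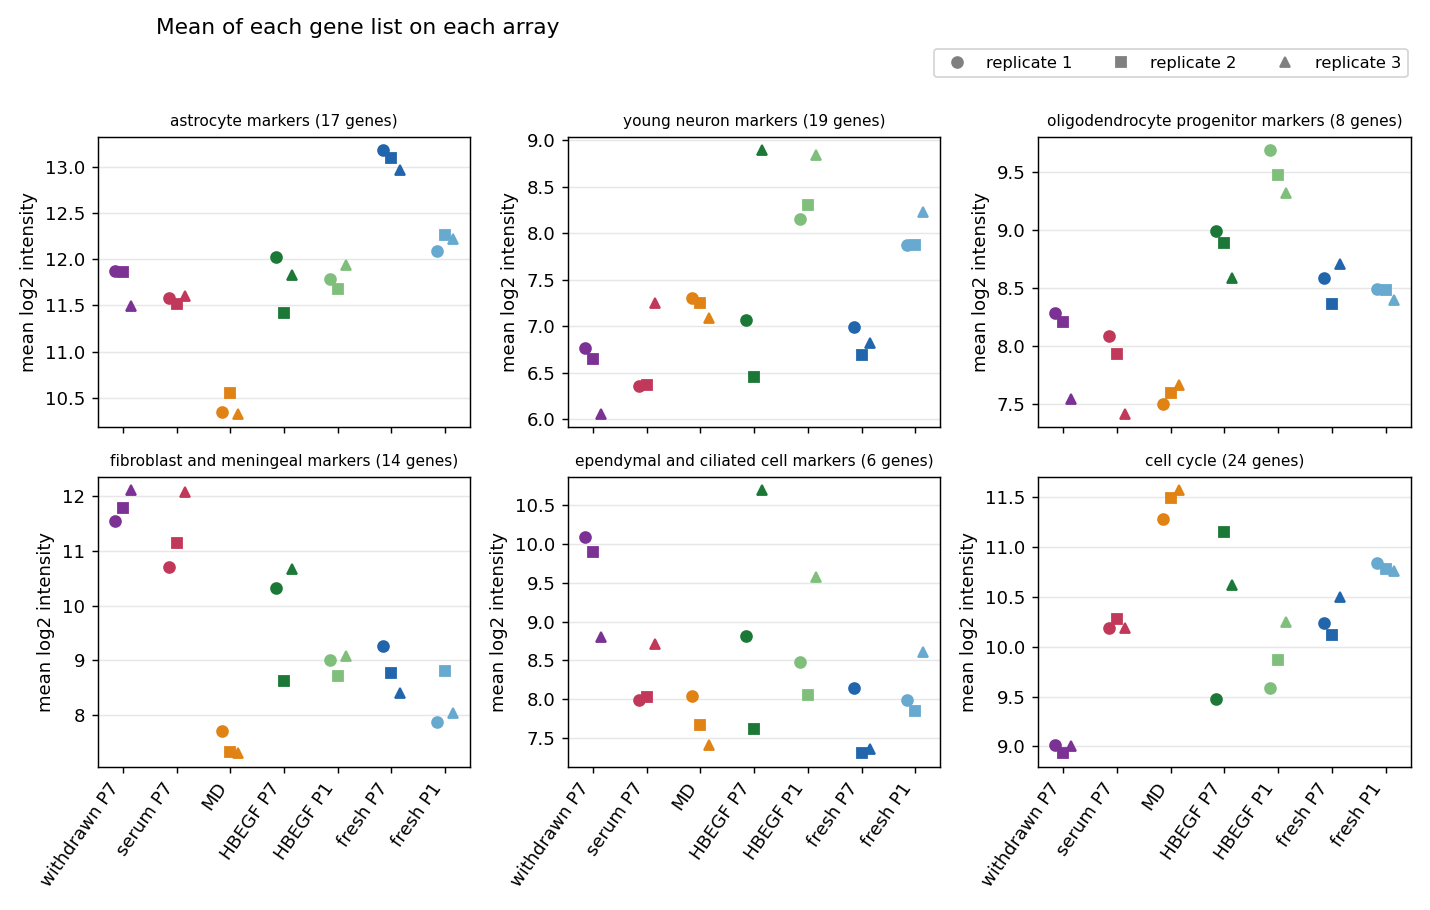
Mean log2 intensity of 6 gene lists on each of the 21 arrays, with replicates as symbols. Fibroblast and meningeal genes are high in withdrawn P7 and serum P7 cultures and low in MD cultures, and HBEGF P7 replicate 3 has the highest level of young neuron genes, at 8.90.

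The remaining marker lists moved in the same comparisons, to be read against the shares of all genes given above for each. Of 17 measured astrocyte genes 10 were called lower and 0 higher in MD cultures against fresh P1 cells, and 6 lower and 0 higher in each of serum P7 and HBEGF P7 cultures against fresh P7 cells. In HBEGF P1 cultures against fresh P1 cells 4 were called higher and 4 lower. Of 8 oligodendrocyte progenitor genes, which include Sox10, 3 were called higher and 0 lower in HBEGF P1 cultures against fresh P1 cells, 3 lower and 0 higher in MD against HBEGF P1 cultures, and 3 lower and 1 higher in serum P7 cultures against fresh P7 cells and in withdrawn P7 against HBEGF P7 cultures. Of 9 oligodendrocyte genes 1 was called higher and 0 lower in HBEGF P1 cultures against fresh P1 cells, and 3 lower and 0 higher in MD against HBEGF P1 cultures.

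Of 14 microglia and macrophage genes 7 were called higher and 0 lower in withdrawn P7 against HBEGF P7 cultures, where Sox3 and Sox11 were called lower and 6.29% of all genes were called higher. In serum P7 cultures against fresh P7 cells, where 3 of the 6 Sox and stem-cell genes were called lower, 1 was called higher and 5 lower, against 9.12% and 9.04% of all genes. In withdrawn P7 against serum P7 cultures, where none of the 6 was called, 8 were called higher and 1 lower, against 2.24% and 2.26% of all genes. The mean level of this list was 7.24 to 8.47 in withdrawn P7, 5.95 to 6.23 in serum P7 and 5.71 to 7.60 in HBEGF P7 cultures, and 6.73 to 7.55 in fresh P7 cells. Of 11 endothelial genes 2 were called lower and 0 higher in HBEGF P1 cultures against fresh P1 cells, where Sox7 had its log2 change of -2.17, and 3 higher and 0 lower in withdrawn P7 against HBEGF P7 cultures. Of all genes 4.49% were called lower in the first of these comparisons and 6.29% higher in the second. The part of any of these cells in the values of the 6 genes was not tested.

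The genes whose 7 group means ran most like each member were found among 6753 genes with a range of at least 1 log2 unit, as a description over 7 means of the same 21 arrays. For Sox3 these were Ccnj (r = 0.997), a cyclin gene, Bend3 (r = 0.992) and Dclk2 (r = 0.991), a doublecortin-like kinase, all highest in HBEGF P1 cultures. For Sox2 they were Usp42 (r = 0.994), Fyn (r = 0.991) and Olfm3 (r = 0.991), and Olfm3, with 5.32 in withdrawn P7 cultures against 12.14 in fresh P1 cells, spanned 6.82 log2 units. The nearest to Sox4 were Znf740 (r = 0.984), Klhl7 (r = 0.983) and Cnot2 (r = 0.982), each lowest in MD cultures. Sox11 had Celf1 (r = 0.989), Naa40 (r = 0.983) and Cyfip2 (r = 0.976), each lowest in withdrawn P7 cultures. Prom1 had Grin3a (r = 0.991), Csap1 (r = 0.989) and Hhipl1 (r = 0.988), all highest in fresh cells. For Fabp7 the nearest was Sfrp2 (r = 0.998), a secreted Wnt modulator, which had a mean of 4.96 in MD cultures, against 11 in fresh P1 cells, followed by Rc3h1 (r = 0.995) and Stag2 (r = 0.995).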

How the data were processed

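The arrays measured RNA of 21 astrocyte preparations. The deposited intensities were computed by the authors with RMA, per the submitters' processing notes, from RNA labelled by the 3' IVT Express method, per the labels. For RMA, the version and the chip definition were not given in the sources used here. Intensities ran from 10 to 37801 on the linear scale, with array medians of 128 to 146, and log2 was taken without a floor or filter. Gene symbols came from the platform annotation, where 20826 probe sets had 1 symbol, 436 several and 9780 none.

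Groups were compared with limma 3.58.1 in R 4.3.3 (lmFit, contrasts.fit, eBayes), in a model with a mean for each of the 7 groups (residual degrees of freedom 14, prior 2.89) and with Benjamini-Hochberg adjustment over all 31042 probe sets. The code was tested on simulated data. With 3 arrays a group, which limits precision, an exact permutation test cannot go below p = 0.1, so none was used. The genes named were the members, the 3 genes most like each of them, up to 4 called genes per list and comparison, and Gfap, Slc1a3 and Aldh1l1. Members, lists and alternatives were chosen with earlier results of these data known. Replicate numbers paired the samples in 5 of 11 comparisons, where the deviations of every same-numbered pair correlated above 0.1 (0.233 to 0.6). Figures were drawn with matplotlib 3.10.9 in Python 3.11.15. Alternatives were a floor of 64, a filter on dim probe sets, quantile normalization, the mean of all probe sets, no fold limit, other eBayes settings, fits of the compared groups alone, a replicate block, and leaving out arrays.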

Additional observations from a re-analysis of the deposited data

How the results depend on the processing

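Of 16 calls of single genes 11 held under all alternatives and 13 with any 1 array left out, and 0 reversed. The calls lost with some array left out were the 3 of Sox11 in serum P7 cultures. The F test of Sox2 had an adjusted p of 0.0862 with the mean of its probe sets. The number of members called in serum P7 cultures against fresh P7 cells was 3, was 5 without the fold limit, and 2 to 4 with 1 array left out. In serum P7 against HBEGF P7 cultures it was 2, and 1 in the fit of those groups alone, without or with the replicate block, and 1 to 2 with 1 array left out. There the Sox11 call was lost (adjusted p = 0.1 without and 0.15 with the block), as it was without replicate 3 of serum P7 and withdrawn P7 together (0.0699). In withdrawn P7 against HBEGF P7 cultures it was 2, and 1 in the fit of those groups alone, without or with the block (Sox11 adjusted p = 0.0573 and 0.125), and 2 with any 1 array left out. In serum P7 against MD cultures it was 2, and 1 with a floor of 64 (Sox11 adjusted p = 0.0623), with the mean of all probe sets (Sox4) or without replicate 3 of serum P7 and withdrawn P7 together (Sox11), and 1 to 2 with 1 array left out. The Sox11 call in serum P7 cultures against fresh P7 cells was lost with the floor, with quantile normalization and without both of these arrays (adjusted p = 0.0539, 0.051 and 0.0923). The block in the fit of all groups changed no call. The cause of these losses was not tested. The fits without replicate 3 of both groups and with the block in the compared groups alone were chosen after seeing the data.

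Reversed values were all log2 changes that were not called. With quantile normalization Sox2 was at 0.0142 in HBEGF P1 cultures against fresh P1 cells and at 0.0076 between the fresh cells, P7 against P1. Without replicate 3 of serum P7 and withdrawn P7 together Prom1 was at -0.0403 in serum P7 against HBEGF P7 and -0.166 against MD cultures, Fabp7 at 0.0307 in withdrawn P7 against HBEGF P7 and Sox2 at 0.0657 in serum P7 against MD cultures. With 1 array left out, Sox2 ran from -0.0814 to 0.0141 in fresh P7 against fresh P1 cells, from -0.2623 to 0.5534 in withdrawn P7 against serum P7 and from -0.462 to 0.0657 in serum P7 against MD cultures. Sox3 ran from -0.6115 to 0.2393 in HBEGF P7 cultures against fresh P7 cells. Sox11 ran from -0.0687 to 0.7034 in HBEGF P1 cultures against fresh P1 cells, from -0.3035 to 0.9354 in HBEGF P7 cultures against fresh P7 cells and from -0.5676 to 0.6713 for the difference of these responses. Prom1 ran from -0.0403 to 0.8971 in serum P7 against HBEGF P7, from -0.5681 to 0.2206 in withdrawn P7 against HBEGF P7 and from -0.166 to 0.6145 in serum P7 against MD cultures, and from -0.561 to 0.1989 for the difference of the HBEGF responses. Fabp7 ran from -0.0229 to 0.3159 in withdrawn P7 against serum P7, from -0.1946 to 0.0307 in withdrawn P7 against HBEGF P7 cultures and from -0.106 to 0.0104 for the difference of the HBEGF responses. The files give no background signal, so how far the dim probe sets lie above background is not known.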
